A study of Mus musculus with 16 samples.

Results

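The Schlafen genes are a family of 7 measured members in these bladder arrays, Slfn1, Slfn2, Slfn3, Slfn4, Slfn5, Slfn8 and Slfn9, out of 26789 genes tested. Their 9 probes were found through the transcript accession that the array files give for each probe. The members were chosen from earlier results of these same arrays, namely how many arrays of each group detected them and how AGED arrays compared with MAT arrays of each sex, so their age changes are given as a description and not as independent evidence. The mice were C57BL/6, with no engineered allele and no treatment named in the labels, and the tissue was the dissected bladder body. MAT stands for an age of 12 months and AGED for 27 to 30 months, and the 4 groups were MAT male, AGED male, MAT female and AGED female, with 4 arrays each and 1 bladder per array. Every direction below follows the age labels deposited with the arrays. For the top age-related genes it is the opposite of the direction that the study prints, and which of them holds was not tested.

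Schlafen genes encode regulators of growth and of immune responses, first described in T cells, and many of them are induced by type I interferon. They fall into a short group (Slfn1 and Slfn2), an intermediate group (Slfn3 and Slfn4) and a long group with a helicase-like end (Slfn5, Slfn8 and Slfn9). Type I interferon acts through the receptor chains Ifnar1 and Ifnar2, the kinases Jak1 and Tyk2 and a complex that holds Irf9 and binds a promoter element called the ISRE.

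All 7 members lie in 1 cluster on mouse chromosome 11, with other genes such as Slfn10-ps between them, from 82951349 (the first base of Slfn5) to 83215154 (the last base of Slfn3) in GRCm38.p6, the build of the RefSeq reference tables. Slfn5, Slfn2, Slfn1, Slfn4 and Slfn3 have promoter entries on the plus strand and Slfn8 and Slfn9 on the minus strand. RefSeq promoter windows of 300 bases were found for all 7, with 2 overlapping windows for Slfn8, and 4 motifs were searched on both strands. The motifs were picked after these promoters had been looked at. The ISRE pattern, GAAA followed after any 2 bases by GAAA, was found in Slfn5, Slfn8 and Slfn9, and in 3.44% of all 32851 promoter windows. These windows are shown, 5′ to 3′ on the gene's strand with the match in capitals. Slfn8 and Slfn9 carry the same 10 letters. They begin at -48 or -136 from the 2 starts of Slfn8 and at -45 from that of Slfn9. The part of the match in the array values was not tested. The match in Slfn5 lies within the annotated span of that gene.
Slfn5, chr11:82951937-82951966, plus strand: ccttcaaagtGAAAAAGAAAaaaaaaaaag
Slfn8, chr11:83020824-83020883, minus strand: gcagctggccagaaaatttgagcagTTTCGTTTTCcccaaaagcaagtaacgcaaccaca
Slfn9, chr11:82991841-82991900, minus strand: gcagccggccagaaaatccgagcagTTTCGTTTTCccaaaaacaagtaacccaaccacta

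The promoters of Slfn1, Slfn2, Slfn3 and Slfn4, the short and intermediate members, hold no ISRE pattern in these windows and share the run ACTTCCTGG, which is in 0.843% of all windows. That run was picked because these promoters share it, so its count among them is not a finding about the family. They are shown with the run in capitals to set them beside the long members.
Slfn1, chr11:83116720-83116779, plus strand: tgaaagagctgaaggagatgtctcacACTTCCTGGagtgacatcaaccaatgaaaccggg
Slfn2, chr11:83065031-83065090, plus strand: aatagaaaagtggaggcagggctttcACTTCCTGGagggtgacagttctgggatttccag
Slfn3, chr11:83191262-83191321, plus strand: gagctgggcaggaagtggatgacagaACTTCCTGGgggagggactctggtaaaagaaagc
Slfn4, chr11:83175087-83175146, plus strand: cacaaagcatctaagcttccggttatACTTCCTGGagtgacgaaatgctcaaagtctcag

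The shorter pattern AANNGAAA, which lies inside the ISRE pattern, was found in all 8 member windows and in 23.9% of all windows. The STAT pattern TTCNNNGAA was found in none of them and in 8.30% of all windows, and its absence says only that these letters are not in these windows. The longest run that the Slfn8 and Slfn9 windows share has 20 bases, against 9 or fewer between Slfn8 and any short or intermediate member.

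**Figure D1:**
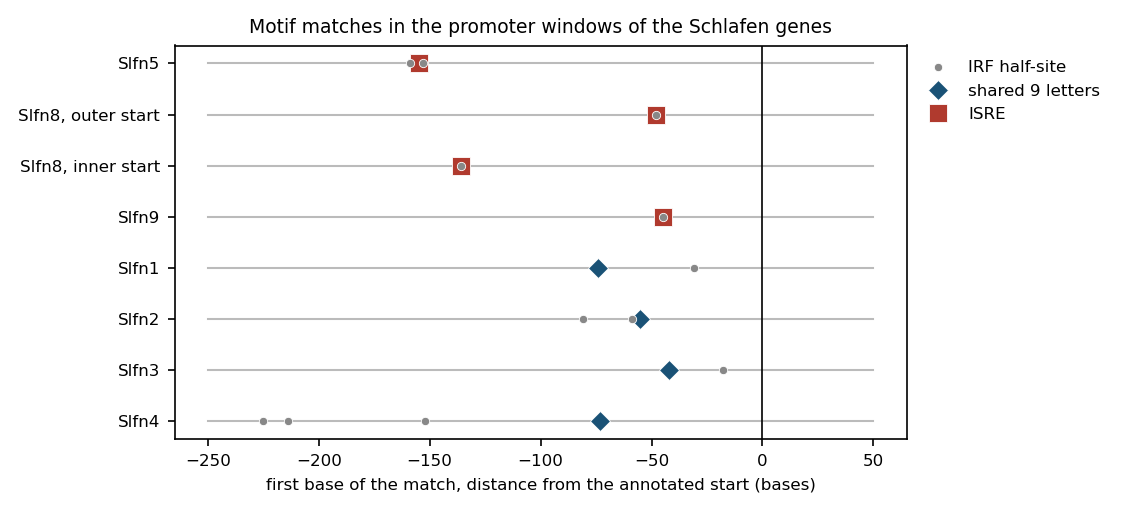
Positions of the motif matches in the promoter windows of the 7 Schlafen genes; the horizontal axis is the distance in bases of the first matched base from the annotated start, and each line is 1 window. The ISRE squares are in the windows of the long members Slfn5, Slfn8 and Slfn9, at -155, -48 (-136 from the inner start of Slfn8) and -45, and the diamonds of the shared 9 letters are in the 4 other members.

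Signals are scanner intensities on the log2 scale less the 75th percentile of their array, so that 0 is the level of a fairly bright probe, and they were compared only within a probe. A probe was well above background where the scanner software marked it so. That share of probes was 60.4% to 65.9% on MAT male arrays, 52.4% to 61.2% on AGED male, 64.6% to 68.3% on MAT female and 59.95% to 63.2% on AGED female arrays. AGED male 1 was the dimmest array, with a 75th percentile of 9.18 against 9.83 or more on the other 15 arrays. All female arrays lay on 1 slide and all male arrays on the other, with MAT in row 1 and AGED in row 2 of both, so that sex cannot be told apart from the slide or age from the row. The sex labels held, since Ddx3y, a gene of the Y chromosome, was well above background on all 8 male and on 0 female arrays. The bladder labels were checked with Upk1a of the urothelium and Cnn1 of smooth muscle, whose group means were 7.60 to 7.88 and 7.90 to 8.15. In whole tissue, fewer cells of a type and less RNA per cell cannot be told apart.

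Slfn2, Slfn8 and Slfn9 were well above background on all 16 arrays, Slfn3 on 14, Slfn5 on 13, Slfn1 on 9 and Slfn4 on 6. In AGED females all 7 were well above background on 4 of 4 arrays. A probe was tested if at least 4 arrays detected it, and Slfn4, with 4 of its 6 arrays in AGED females, passed through the group where it was highest. Among relatives outside the family as defined here, Slfn14 and the Schlafen-like gene Slfnl1 were well above background on 0 arrays, and no probe was matched to the pseudogene Slfn10-ps.

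In females the AGED arrays lay above the MAT arrays for most of the family, and in males they mostly did not. The fold between AGED and MAT females was 6.31 for Slfn4, 3.78 for Slfn1, 3.08 for Slfn2, 2.64 for Slfn5 and 2.6 for Slfn8, against 1.60 for Slfn3 and 1.16 for Slfn9. A gene was called where its change was 2-fold or more and its adjusted p under 0.05. Slfn4 alone was, 1 of 7 members where 0.179% of all genes were called higher. With p left unadjusted, 4 of 7 members passed both limits in females (Slfn1, Slfn2, Slfn4 and Slfn8), against 1.21% of all genes. Every AGED female array lay above every MAT female array for 5 of 7 members (Slfn1, Slfn2, Slfn4, Slfn5 and Slfn8), against 4.96% of all genes. In males 0 of 7 members were called higher, against 0.272% of all genes. Slfn4 passed the unadjusted rule there, 1 of 7 against 1.16% of all genes, and was also the 1 member whose AGED male arrays all lay above the MAT male arrays, against 3.88%. The rule that chose the family used these contrasts, so nothing is read from the counts. The median log2 change of the 7 members was 1.40 in females and 0.20 in males, where the median over all genes was -0.01 and 0.00.

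**Figure D2:**
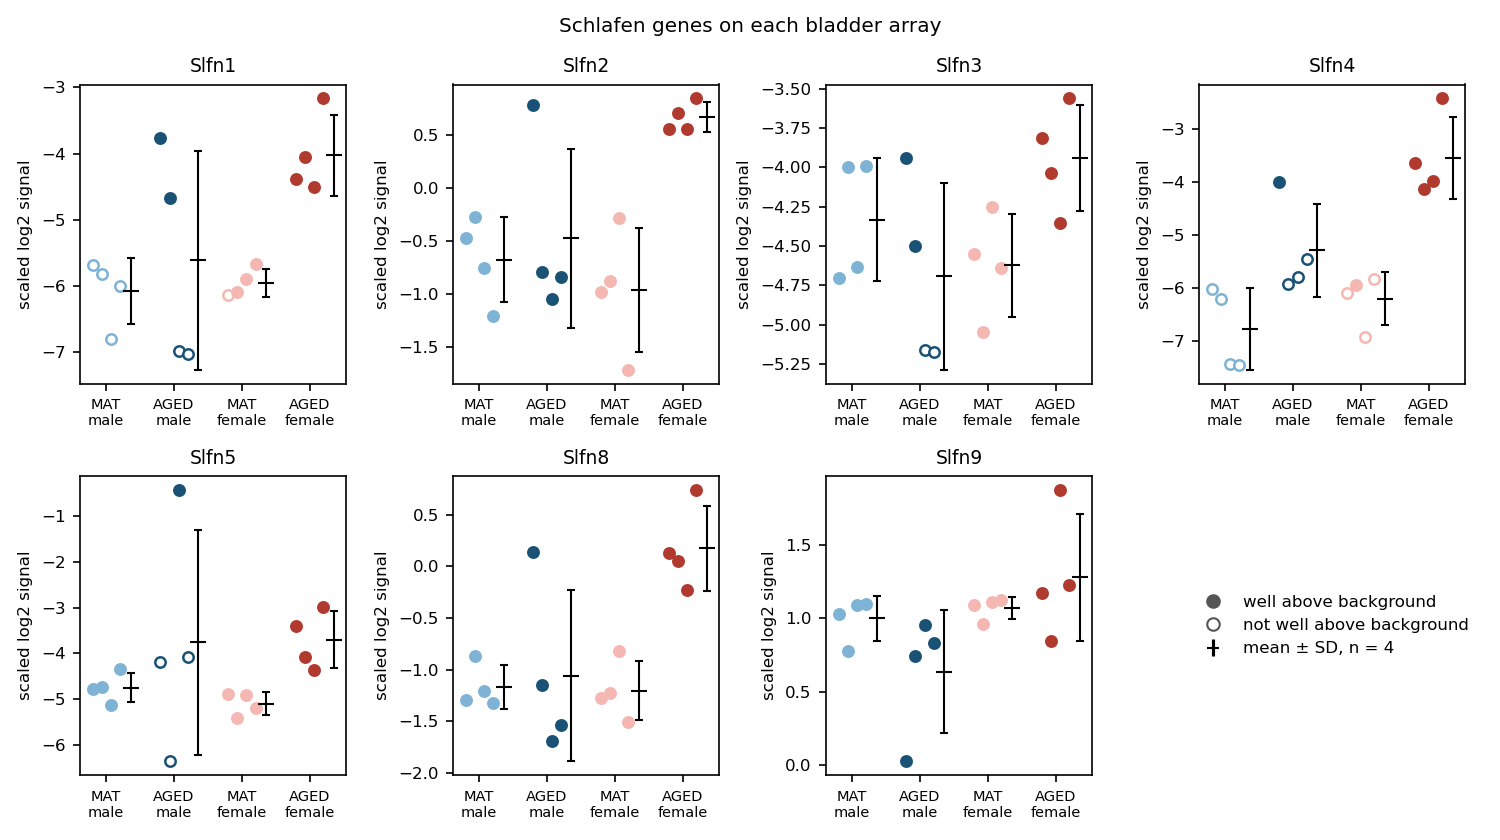
Scaled log2 signal of the tested probe of each of the 7 Schlafen genes (vertical axis) on the 16 arrays by group (horizontal axis); filled points were well above background, open points were not, and the bar is the mean ± SD of 4 arrays. AGED female points lie above all MAT female points for Slfn1, Slfn2, Slfn4, Slfn5 and Slfn8, and among AGED males the points of replicate 1 are high for Slfn1, Slfn2, Slfn4 and Slfn8.

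Slfn1, the founding short member, had log2 signals of -6.14, -6.09, -5.90 and -5.67 on MAT female arrays 1 to 4 and of -4.39, -4.05, -4.5 and -3.16 on AGED female arrays. On MAT male arrays they were -5.69, -5.82, -6.80 and -6.00, none well above background, and -3.77, -4.67, -6.99 and -7.03 on AGED arrays. The female groups did not overlap, while AGED males split into a high pair (replicates 1 and 2, both detected) and a low pair that was not detected. The log2 change was 1.92 in females (standard error 0.59, adjusted p = 0.268 from limma) and 0.46 in males (standard error 0.59, adjusted p = 0.725). Without AGED male replicate 1 the male change was -0.15.

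Slfn2, which keeps immune cells quiescent, had log2 signals of -0.98, -0.87, -0.29 and -1.71 on MAT female arrays and of 0.55, 0.71, 0.55 and 0.84 on AGED female arrays. In males they were -0.47, -0.27, -0.75 and -1.20 on MAT and 0.78, -0.79, -1.05 and -0.84 on AGED arrays. The 4 AGED females lay close together (SD 0.14) above all MAT females. In scaled signal AGED male 1 lay at their level, while the other 3 AGED males lay among the MAT males. Before scaling, AGED male 1 read 996, against 1636 to 2663 on AGED females and 471 to 596 on the other AGED males. The log2 change was 1.63 in females (standard error 0.36, adjusted p = 0.10 from limma) and 0.20 in males (standard error 0.36, adjusted p = 0.814). Without AGED male replicate 1 the female change of 1.63 was called (adjusted p = 0.00936), through the spread that all groups share, and the male change was -0.22.

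Slfn3, which is tied to the differentiation of the gut epithelium, had log2 signals of -4.55, -5.05, -4.25 and -4.64 on MAT female and -3.82, -4.04, -4.35 and -3.56 on AGED female arrays. Male arrays read -4.71, -4.0, -4.64 and -3.99 on MAT and -3.94, -4.5, -5.16 and -5.18 on AGED arrays. Both pairs of groups overlapped, and AGED males 3 and 4 were not well above background. The fitted log2 change was 0.68 in females (standard error 0.28, adjusted p = 0.415 from limma) and -0.36 in males (standard error 0.28, adjusted p = 0.550), and with normexp background correction the male change was 0.15.

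Slfn4, an interferon-induced gene of myeloid cells, had log2 signals of -6.09, -5.94, -6.93 and -5.83 on MAT female arrays, with replicate 2 alone well above background, and of -3.64, -4.14, -3.98 and -2.41 on AGED female arrays, all detected. In males they were -6.02, -6.20, -7.43 and -7.45 on MAT arrays, none detected, and -4.0, -5.91, -5.80 and -5.45 on AGED arrays, with replicate 1 alone detected. It was the member with the largest change in both sexes, and the groups did not overlap in either. A log2 change of 2.66 was fitted in females (standard error 0.48, limma adjusted p = 0.0415). In males it was 1.48 (standard error 0.48, limma adjusted p = 0.143). With MAT males set no lower than the detection floor, the mean AGED male signal was 2.30-fold higher. That fold is not a lower bound, because replicate 1 alone of the AGED males was detected. The male change was 1.05 without AGED male replicate 1 and 0.39 with normexp. The female call rests on single arrays, since it was lost when any 1 of the 8 female arrays, or MAT male 1, 3 or 4 or AGED male 4, was left out, and with normexp the female change was 0.95 (adjusted p = 0.279).

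Slfn5, a nuclear long member, had log2 signals of -4.90, -5.42, -4.91 and -5.21 on MAT female and -3.40, -4.08, -4.36 and -3.0 on AGED female arrays. Male arrays read -4.79, -4.75, -5.12 and -4.34 on MAT and -4.19, -6.37, -0.41 and -4.07 on AGED arrays, of which replicate 3 alone was well above background. The female groups did not overlap, and 1 AGED male array stood far above all 15 others. The log2 change was 1.40 in females (standard error 0.83, adjusted p = 0.592 from limma) and 0.99 in males (standard error 0.83, adjusted p = 0.575). Without AGED male replicate 3 the male change was -0.13. The single Slfn5 spot lies in row 384, the last row of the array, and the scanner software's processed signal was 2.88 times the background-subtracted signal on AGED male 3 and 3.01 times on AGED male 4, against 0.89 to 1.30 times on the other 14 arrays. Before it, the background-subtracted signal was 254 on AGED male 3 and 124 on AGED female 1, and the raw median signal 201 and 205. Over all spots well above background, the 95th percentile of the factor was 1.82 to 2.16 on AGED male arrays. On arrays of the other groups it was 1.05 to 1.72. Among spots of other members the factor reached 3.46, for Slfn1 on AGED male 3. The part of this correction in the members' values was not tested.

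Slfn8, a long member of immune cells, had log2 signals of -1.27, -1.22, -0.82 and -1.5 on MAT female and 0.13, 0.06, -0.23 and 0.74 on AGED female arrays. The male values were -1.29, -0.86, -1.20 and -1.33 on MAT and 0.14, -1.15, -1.69 and -1.53 on AGED arrays. As for Slfn2, AGED male 1 lay at the level of the AGED females in scaled signal and the other 3 AGED males did not. Before scaling, AGED male 1 read 639, against 1217 to 1548 on AGED females and 302 to 465 on the other AGED males. The log2 change was 1.38 in females (standard error 0.33, adjusted p = 0.125 from limma) and 0.11 in males (standard error 0.33, adjusted p = 0.891), and without AGED male replicate 1 the female change was called (adjusted p = 0.00907) and the male change was -0.29. In that fit 3 of 7 members (Slfn2, Slfn4 and Slfn8) were called in females, where 0.396% of all genes were called higher. A second, much dimmer Slfn8 probe, well above background on 11 arrays, had a log2 change of 1.35 in females (standard error 0.57) and 0.99 in males (standard error 0.57).

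Slfn9, the neighbour of Slfn8 and the member most like it in promoter letters, had log2 signals of 1.09, 0.96, 1.11 and 1.13 on MAT female and 1.18, 0.84, 1.88 and 1.23 on AGED female arrays. The male values were 1.03, 0.78, 1.09 and 1.10 on MAT and 0.02, 0.74, 0.95 and 0.83 on AGED arrays. The female groups overlapped, and AGED male 1, high in 4 other members, was here the lowest of the 16 arrays. A log2 change of 0.21 was fitted in females (standard error 0.22, limma adjusted p = 0.805, 95% interval -0.25 to 0.67) and -0.36 in males (standard error 0.22, adjusted p = 0.420, interval -0.82 to 0.10). Its other probe, detected on all 16 arrays, gave 0.24 and -0.39. The array files hold no probe sequences, so whether probes of Slfn8 and Slfn9 or of Slfn3 and Slfn4 also bind the neighbour's transcript was not tested.

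**Figure D3:**
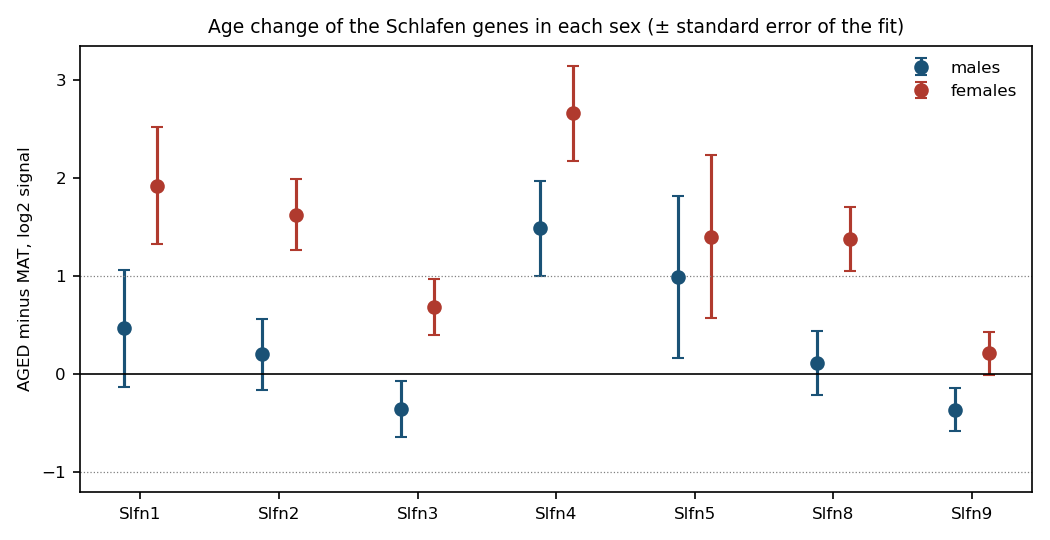
Difference in log2 signal between AGED and MAT arrays (vertical axis) for each Schlafen gene in males and females; bars are the standard error of the fit, and dotted lines mark a 2-fold change. The female point lies above the male point for all 7 genes, and the female changes run from 0.21 for Slfn9 to 2.66 for Slfn4.

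**Figure D4:**
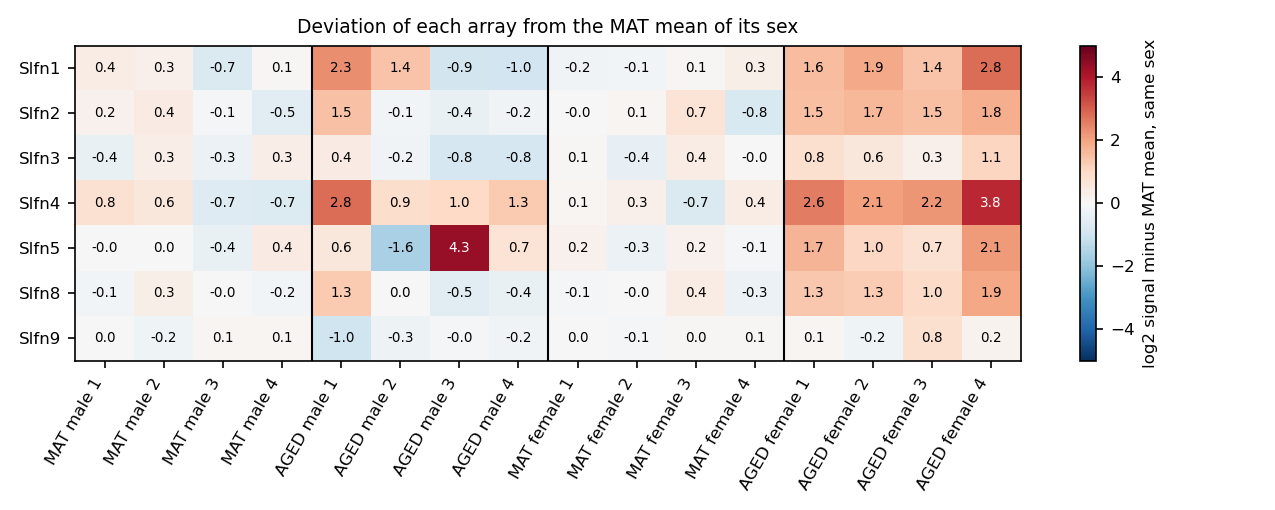
Log2 signal of each array (columns) less the MAT mean of its sex, for each Schlafen gene (rows); red is above and blue below that mean. The 4 AGED female columns are above it for 6 genes, while Slfn9 lies from -0.23 to 0.81 around it, and AGED male 1 is the AGED male column most like them.

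The difference of the age changes between the sexes was fitted directly, as the male change less the female change. The rule that chose the family used the age changes of each sex. These differences are therefore a description and not independent evidence. The difference was negative for all 7 members, from -0.41 for Slfn5 to -1.46 for Slfn1, and 0 of 7 were called, where 0.187% of all genes were. At an unadjusted p under 0.05, Slfn2 (-1.42, 95% interval -2.52 to -0.33), Slfn3 (-1.04, interval -1.90 to -0.18) and Slfn8 (-1.26, interval -2.25 to -0.28) passed, 3 of 7 against 9.84% of all genes. Their adjusted p from limma was 0.343, 0.386 and 0.352. The dimmer Slfn8 probe, which did not stand for the gene, had a difference of -0.36 (standard error 0.80). Without AGED male replicate 1, Slfn2 and Slfn8 were called, 2 of 7 where 1.02% of all genes were.

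At 12 months 0 of 7 members were called between the sexes, against 0.157% of all genes. The differences of MAT males from MAT females ran from -0.57 for Slfn4 (standard error 0.48) to 0.36 for Slfn5 (standard error 0.83). Slfn8 had 0.03 by the probe that stood for it and -0.89 (standard error 0.57) by its dimmer probe. The dimmer probe was well above background on 1 of the MAT male arrays. At 27 to 30 months all 7 members were lower in males than in females, and Slfn4 and Slfn8 were called, 2 of 7 where 1.89% of all genes were called lower in males. The log2 difference was -1.75 for Slfn4 (standard error 0.48, limma adjusted p = 0.0361), for Slfn8 it was -1.23 (standard error 0.33, adjusted p = 0.0303) and for Slfn2 -1.14 (standard error 0.36, adjusted p = 0.0633). This comparison shares its arrays with the age changes above and is not a separate observation, and it also compares the 2 slides. It ranged from 0 to 5 members called when 1 array was left out, with 5 (Slfn1, Slfn2, Slfn3, Slfn4 and Slfn8) without AGED male replicate 1, where 2.86% of all genes were called lower in males.

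The interferon pathway was followed from its ligands through receptors and signalling genes to its targets. Of 6 ligands tested, 0 were called in either sex, and Ifnb1 and Ifna4 were well above background on 0 arrays. Of 6 receptor chains 0 were called in either sex; the log2 changes of the type I receptor chains were 0.01 (Ifnar1) and -0.02 (Ifnar2) in females and -0.36 and -0.20 in males. Of 12 signalling genes 8 were above 0 in each sex. Called higher were 3 in females and 0 in males, against 0.179% and 0.272% of all genes. The 3 in females were Irf7, the inducible factor that amplifies interferon production (log2 change 2.93, adjusted p = 0.0460 from limma), Irf9, the DNA-binding part of the ISRE complex (1.34, adjusted p = 0.0221), and Usp18, which restrains the receptor (1.13, adjusted p = 0.0264). For Irf3 and Jak1, the signalling genes with the highest signal, the female log2 changes were -0.35 and -0.16. The 3 genes Irf7, Irf9 and Usp18 are named because they were called.

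Interferon targets, genes that the ISRE complex switches on, were set beside the family. All 23 tested targets were higher in AGED than in MAT females, 7 of them called (Dhx58, Ifit1, Ifit3, Oasl1, Oasl2, Rtp4 and Xaf1), with a median log2 change of 1.81. In males 19 of 23 were lower, 0 were called, and the median was -0.37. Of the targets with the highest signal, Rtp4, a chaperone of receptors, had a log2 change of 2.28 in females (standard error 0.40, adjusted p = 0.0336 from limma) and -0.36 in males, and Ifi27l2a one of 1.54 (standard error 0.32, adjusted p = 0.0707) and -0.61. The mean centred level of the 23 targets was 1.03 to 1.56 on AGED female arrays and -0.77 to -0.06 on MAT female arrays. On AGED male arrays it was 0.63 in replicate 1 and -1.46 to -0.37 in the other 3. The members' own mean was 0.68 to 1.49 on AGED female, -0.55 to -0.31 on MAT female and 0.69 on AGED male 1, with -0.50 to -0.05 on the other AGED males.

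**Figure D5:**
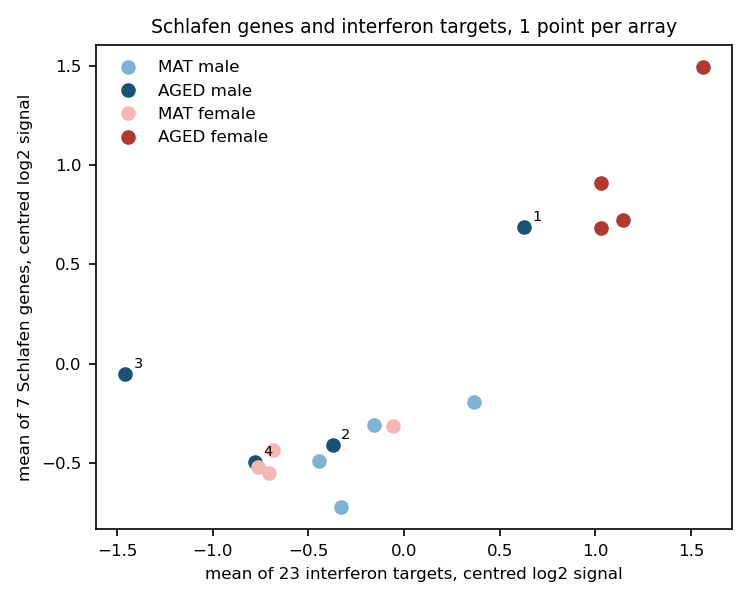
Mean centred log2 signal of the 7 Schlafen genes (vertical axis) against that of 23 interferon targets (horizontal axis), with 1 point per array and AGED male arrays numbered by replicate. The 4 AGED female arrays and AGED male 1 lie at the upper right, and AGED male 3, whose Slfn5 spot stood apart, lies at -1.46 and -0.05.

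Across the 16 arrays and 15754 genes with a symbol, the 3 genes most like each member were named, and 8 of these 21 entries are on the interferon lists used here, 0 of them for Slfn4, Slfn5 or Slfn9. Slfn2 was most like Irf7 (Pearson r = 0.964, Spearman rho = 0.938, and r = 0.929 after group means were subtracted), then Dhx58 and Rtp4. Slfn8 was most like Trim30a (0.971, 0.956 and 0.933), Irgm1 and Fcgr1. Slfn1 was most like Cmpk2 (0.906, 0.897 and 0.825), and Slfn3 most like Ifi44 (0.871, 0.844 and 0.818) and Oas2. Slfn4 was most like Dalrd3 (0.910, 0.850 and 0.843), Slfn5 like Cib1 (0.839, 0.803 and 0.785) and Slfn9 like Edem2 (0.895, 0.741 and 0.845). Within the family the closest pair was Slfn2 with Slfn8 (Pearson r = 0.9396, and 0.87 after group means were subtracted). Slfn9 with its neighbour Slfn8 had r = 0.00 over all arrays and -0.72 after group means were subtracted. Points of 1 group and slide are not independent. The weight of single arrays in these values, such as AGED male 1 or, for Slfn5, AGED male 3, was not tested. Slfn4 was well above background on only 6 of the 16 arrays.

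The genes beside the cluster were compared in the same way. Among tested genes near it were Unc45b, Nle1 and Fndc8 before and Ap2b1 and Rasl10b after. AI662270 lies in the span from Slfn5 to Slfn14, which reaches past Slfn3. Of the genes named here outside the family, 0 were called in either sex. The female log2 changes were -2.67 for Fndc8 (standard error 0.95, limma adjusted p = 0.346), -0.18 for Unc45b, -0.15 for Rasl10b, 0.05 for Ap2b1, 0.09 for Nle1 and 0.34 for AI662270.

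Markers of immune cells were set beside these values. In females 5 of 6 macrophage, 3 of 3 monocyte and 5 of 5 neutrophil genes were higher in AGED arrays, with 0 called. The monocyte mean was 0.35 to 1.55 on AGED female and -0.51 to 0.11 on MAT female arrays, and the neutrophil mean -0.18 to 0.90 and -1.36 to -0.35. In females 0 of 6 T cell and 0 of 6 B and plasma cell genes were higher, against 6 of 6 and 6 of 6 in males, with 0 called. Higher in AGED than in MAT males were also 4 of 6 macrophage, 2 of 3 monocyte and 3 of 5 neutrophil genes. In males 2 neutrophil genes were called higher, S100a8 (2.43) and S100a9 (3.08), while the family was not called. On AGED male 1 the T cell mean was 1.87, the monocyte mean 1.02 and the macrophage mean 0.77, each the highest of the AGED males, whose other monocyte means were -1.26 to -0.31. Of 4 NK cell genes, 3 were higher in AGED females and 0 in AGED males, none called, and Klre1 and Ncr1 were called lower in AGED males than in AGED females. The monocyte list holds Fcgr1, among the genes most like Slfn1 and Slfn8. Among defining markers, the neutrophil gene Mmp8 was well above background on 0 arrays, and no probe was matched to Ly6g, Ly6c2 or Cd68. The part of these cells in the Schlafen values was not tested.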

How the data were processed

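RNA of 16 bladders was measured on 1-colour Agilent arrays. The authors scanned them with Feature Extraction (version 9.1 per the submitters' processing notes), and the deposited intensity of each spot is background-subtracted and corrected for trends within the array. The authors also deposited a log2 table, centred on each probe's median over arrays, which differed from the scaled values below by a median of at most 0.0027 per array. The members, lists and motifs were chosen with earlier results of these data known.

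Log2 processed signals were averaged over the spots of a probe, without controls and without spots flagged as outliers, and each array's 75th percentile over probes was taken off. After a first fit, flagged spots were also counted as not well above background, which moved no member's call. Of 144 values of member spots, 0 had such a flag, and no spot was saturated. Of 55681 probes, 26582 were named through RefSeq accessions (GRCm38.p6, for names, neighbours and promoters). Tests covered probes detected well above background on 4 or more of 16 arrays (36982 probes, 26789 genes, of which 6574 had over 1 kept probe), and the kept probe with the highest mean stood for its gene.

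The 5 comparisons used limma 3.58.1 (R 4.3.3) with group means fitted over all arrays at once, 12 residual degrees of freedom and Benjamini-Hochberg adjustment over all genes. A call needed an adjusted p under 0.05 and a 2-fold change, with no fold limit for the difference of the age changes. For a probe well above background on 0 arrays of a group, a fold was also taken with a floor. It is the brighter mean over the dimmer one, where no dim array counts below the lowest signal detected on it. It is a lower bound only where the arrays of the brighter group detected the probe. Mean levels of a list are centred on each gene's mean over arrays. Tested on simulated data with 200 of 26789 genes changed in females, the procedure called 84 of 100 genes changed by 1.5 and 95 of 100 changed by 2.5 on the log2 scale, with 10 unchanged genes called. The genes named outside the family follow a written rule, which takes the 2 brightest genes of a list with a call, the flanking genes and the genes most like each member. The values of 1 flanking gene are not reported here. Alternatives covered the scaling, background correction, filter, floor, probe choice, flags, test, weights, replicate block and each array left out. Normexp used the median spot signal. Arrays give no counting depth, so their number limits the precision.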

Additional observations from a re-analysis of the deposited data

Results flagged for a closer look

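AGED male replicate 1 stood apart from the rest of its group in Slfn2, with a log2 signal of 0.78 against -1.05 to -0.79 on the other 3 arrays, a gap of 0.861 of the group's range. This array was also the dimmest, and its part in the result was not tested beyond the values without it. MAT female replicate 3 stood apart in the mean level of the interferon targets, at -0.06 against -0.77 to -0.68, a gap of 0.884 of the range. Of 36 groups of values of single probes 1 was marked in this way, and of 24 groups of list means 1, where chance marks about 1 in 20 groups. The lists screened in this way were chosen after the members' values had been seen.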

How the results depend on the processing

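The number of members called was recomputed under each alternative. The share of all genes called under each one is not given beside these counts. They show only how the calls depend on the processing, and nothing about the family is read from them. In males it was 0 throughout (0 to 0 with 1 array left out), except for 1 with the methods' t-test unadjusted. In females it was 1, and 0 under normexp, with no filter on dim probes, with the methods' t-test adjusted and with the replicate block, 4 with each sex fitted alone and with array weights, 5 with the methods' t-test unadjusted, and 0 to 3 with 1 array left out. For the difference of the age changes it was 0 to 2 with 1 array left out and 0 otherwise. Between AGED males and AGED females it was 2, and 0 under normexp and the adjusted methods' t-test, 1 with the mean of the kept probes and with the replicate block, and 0 to 5 with 1 array left out. The replicate block stays an alternative, because same-numbered arrays deviated together in no sex (correlations from -0.147 to 0.0681).

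In males the age change turned to -0.084 for Slfn2 and -0.043 for Slfn8 with array weights and to 0.15 for Slfn3 under normexp. With 1 array left out it ranged from -0.15 to 0.94 for Slfn1, -0.22 to 0.39 for Slfn2 and -0.29 to 0.32 for Slfn8, each lowest without AGED male replicate 1, and from -0.13 (without AGED male replicate 3) to 1.86 for Slfn5. No female age change turned its sign. The difference of the age changes of Slfn5 ranged from -1.53 to 0.46 (highest without AGED male replicate 2). At 12 months, male less female, normexp gave 0.23 for Slfn1, 0.21 for Slfn4 and 0.010 for Slfn9, and Slfn8 was -0.43 with the mean of the kept probes and -0.041 with array weights. With 1 array left out these differences ranged from -0.26 to 0.11 for Slfn1, -0.070 to 0.16 for Slfn8 and -0.11 to 0.0017 for Slfn9. At 27 to 30 months Slfn3 was 0.16 under normexp, and Slfn5 ranged from -1.17 to 0.82 with 1 array left out. The cause of these turns was not tested. Slfn1 and Slfn4 are dim, and their values in MAT mice lie near background.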
